A study of Mus musculus with 2 samples.

Results

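The Mir191 and Mir425 locus on mouse chromosome 9 was followed through 2 rows of the table of smRNA-seq values, CT010508.1, which lies at the position of Mir191, and Mir425. These 2 rows of 1638 were chosen by name and position with their values already known, so that their levels are given as a description, with no test. Cells of 2 kinds were sequenced with 1 library each, namely mESCs and male germ cells of E15.5. The latter are called PGCs in the sample labels and prospermatogonia in the study's methods, the name used here. The mESCs were wild-type E14 cells, a line derived from the mouse blastocyst, which the methods describe in general as grown without feeder cells in 2i medium with LIF. They do not give the culture of this library by name. The prospermatogonia were wild-type germ cells of fetal testes, collected from matings of C57Bl/6J females that carried an Oct-4/GFP transgene active in the developing gonad. The libraries thus differ in cell type, in strain and in culture against tissue, and these cannot be told apart. With 1 library per condition, no difference has a replicate check.

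A miRNA gene is transcribed as a long precursor from which a hairpin is cut, and Dicer then releases from each arm of the hairpin a short mature miRNA. The seed, bases 2 to 8 of the mature miRNA, pairs with target mRNAs and largely sets which of them are repressed, so that miRNAs with the same seed are grouped as a family. miR-191 is found in many cell types and has been proposed as a reference for normalizing miRNA assays. Mir191 and Mir425 are known as a pair of neighbouring hairpins that are transcribed together with the gene Dalrd3, named for its DALR anticodon-binding domain.

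The mature sequences are shown first because the table counts reads per hairpin and does not separate the arms, so that either arm could supply the reads. They are RefSeq sequences on GRCm38.p6, written 5′ to 3′ with the seed in capitals.
mmu-miR-191-5p: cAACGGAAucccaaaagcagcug
mmu-miR-191-3p: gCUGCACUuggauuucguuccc
mmu-miR-425-5p: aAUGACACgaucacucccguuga
mmu-miR-425-3p: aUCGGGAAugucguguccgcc
mmu-miR-489-3p: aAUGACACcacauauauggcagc
The last of these belongs to another gene, Mir489 on chromosome 6, and is shown because it is the only mature miRNA among 1738 in RefSeq that has a seed in common with the locus. It is identical to miR-425-5p over the first 8 bases and at 12 of 23 positions. The seeds of both arms of Mir191 and of the 3p arm of Mir425 occur in no other mature miRNA of that set. Mir489 had 0 reads in both libraries. For a count of 0 the upper limit of the 95% Poisson interval is 3.69 reads. The level of Mir489 may thus be up to 8.20 RPM (reads per 1000000 reads of the library) in mESCs and 1.29 RPM in prospermatogonia.

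The hairpins are shown with their mature arms in capitals.
Mir191 (chr9:108568319-108568392, plus strand): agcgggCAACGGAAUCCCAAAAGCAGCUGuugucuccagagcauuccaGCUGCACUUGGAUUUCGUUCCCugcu
Mir425 (chr9:108568777-108568861, plus strand): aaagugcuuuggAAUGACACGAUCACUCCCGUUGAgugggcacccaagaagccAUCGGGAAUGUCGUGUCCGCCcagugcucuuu
Both fold into a stem with 28 base pairs, with a predicted minimum free energy of -35.0 kcal/mol for Mir191 and -31.7 kcal/mol for Mir425. Their GC contents were nearly the same, 54.1% for each, against a median of 51.7% over 1005 RefSeq hairpins. The longest stretch that Mir191 shares with any other hairpin of that set is 10 nt, and for Mir425 it is 12 nt, both shorter than a mature miRNA.

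The row Mir425 has exactly the position and the strand of the Mir425 hairpin. The row CT010508.1 does not have those of Mir191. It covers 120 bases from 108568295 to 108568414, which is the hairpin with 24 bases before and 22 after it, and it is listed on the minus strand, whereas Mir191 lies on the plus strand. GENCODE vM21 has a miRNA gene named Gm24083 at exactly this position and strand. The table has no row for Mir191 itself, and no other row lies within 10 kb of the locus.
The transcript of the row on its listed strand is shown because it holds the mature arms of Mir191 only as their reverse complements, which are in capitals.
CT010508.1 (chr9:108568295-108568414, minus strand): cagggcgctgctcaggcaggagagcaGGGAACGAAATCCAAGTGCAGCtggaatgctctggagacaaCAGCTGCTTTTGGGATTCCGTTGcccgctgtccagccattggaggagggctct
Whether the reads were counted by strand is not stated, and no rows of the table overlap each other, so that the table cannot show it. If strand was ignored, the reads of this row include those of miR-191, and if strand was used, they are RNA from the opposite strand. These cannot be told apart here, and the row is therefore called by its listed name.

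The reads of CT010508.1 were set beside those of rows with the same kind of name. Of 1002 rows named after a genomic clone, CT010508.1 was the highest in both libraries and held 89.7% of their 3782 reads in mESCs and 61.4% of their 2594 reads in prospermatogonia. In 6 of these 1002 rows, a RefSeq hairpin is found only on the opposite strand. Of these 6 rows 5 had reads in mESCs and 4 in prospermatogonia. Of the 958 clone-named rows without a RefSeq hairpin on either strand, 4 had reads in mESCs and 13 in prospermatogonia. The remaining 38 have a RefSeq hairpin on their own strand, and each library had 6 reads on them in all, spread over 2 rows in mESCs and over 5 in prospermatogonia.

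**Figure D1:**
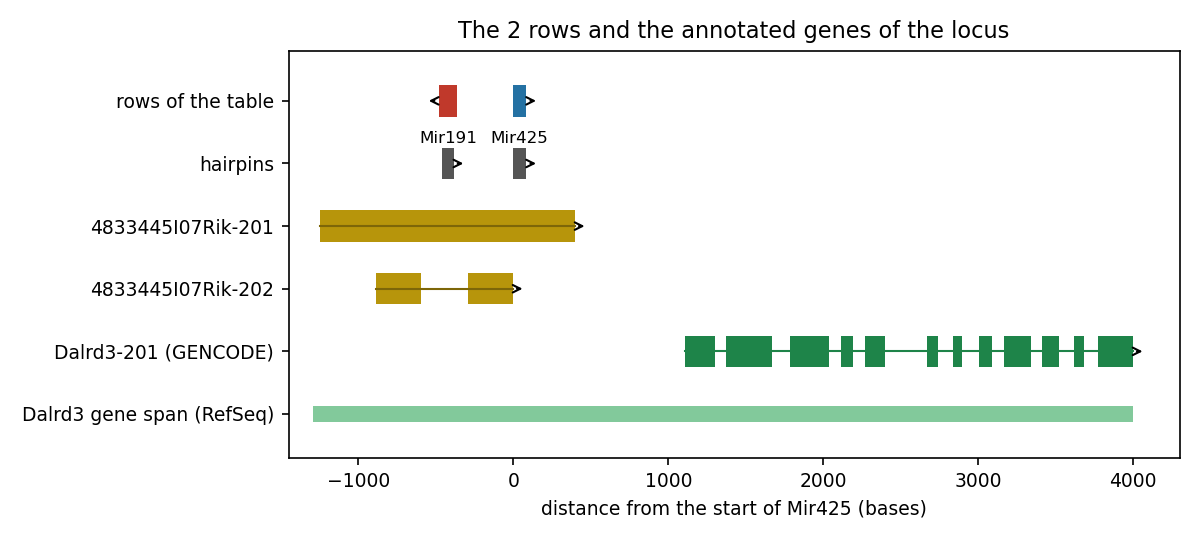
Map of the locus, with distance from the start of Mir425 in bases on the x axis. Boxes are the 2 rows of the table (top), the annotated Mir191 and Mir425 hairpins, exons of the GENCODE transcripts of 4833445I07Rik and Dalrd3, and the span of the RefSeq gene Dalrd3. Arrows give the strand. The row at the Mir191 position points the other way from the hairpin it covers.

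Annotations differ on the gene that holds the pair. In RefSeq, Dalrd3 spans 108567484 to 108572773 and encloses both hairpins. In GENCODE vM21, Dalrd3 starts 1024 bases after the end of Mir425, and both hairpins lie in the noncoding gene 4833445I07Rik, from 108567533 to 108569174 on the plus strand. The Mir191 hairpin is in an exon of 1 of its transcripts and in an intron of the other. Mir425, 384 bases downstream of Mir191, is in an exon of the first of these transcripts, and the other transcript ends before it. The plotted map sets both annotations beside the rows.

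The level of each row was read from whole reads, which could be recovered from the deposited log2 values. The deposited log2 values of CT010508.1 were 12.88 in mESCs and 9.12 in prospermatogonia, and those of Mir425 were 7.44 and 4.18. A single read was worth 2.22 RPM in mESCs and 0.348 RPM in prospermatogonia, the deeper library, with 110455 and 155237 reads on all miRNA features. The RPM rest on reading the deposited values as log2 RPM, whereas reads and shares of miRNA reads do not. Intervals are 95% intervals (Poisson for reads and RPM, Wilson for shares) and describe counting error alone. Without molecular identifiers, PCR copies of 1 molecule cannot be recognized.

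CT010508.1 had 3391 reads in mESCs, a level of 7542 RPM (7290 to 7800), and ranked 7 of 1638 features by reads. In prospermatogonia it had 1592 reads, 555 RPM (528 to 583), and ranked 19. The row was thus among the highest features of both libraries. Its share of the miRNA reads was 3.07% in mESCs (2.97% to 3.17%) and 1.03% in prospermatogonia (0.977% to 1.08%).
Mir425 had 78 reads in mESCs, 173 RPM (137 to 217), and ranked 82. In prospermatogonia it had 52 reads, 18.1 RPM (13.5 to 23.8), and ranked 105. Its counts were above the 3.69 reads that a count of 0 allows in both libraries, but its intervals were wide. Its share of the miRNA reads was 0.0706% in mESCs (0.0566% to 0.0881%) and 0.0335% in prospermatogonia (0.0255% to 0.0439%). For both rows the intervals of the 2 libraries did not overlap, neither as RPM nor as a share of miRNA reads. How often this held for other features was not counted, so that it does not set the locus apart. Of the 203 features that reached 10 RPM in either library, 80.8% were at least 2-fold lower in RPM in prospermatogonia. Together the pair held 3.14% of the miRNA reads in mESCs and 1.06% in prospermatogonia.

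**Figure D2:**
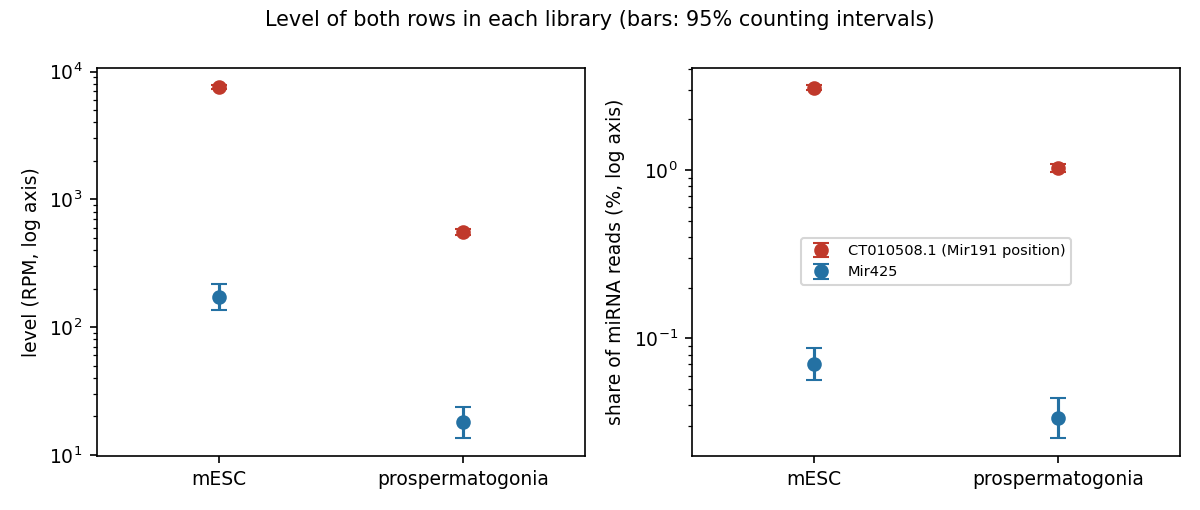
Level of CT010508.1 (red) and Mir425 (blue) in each library, as RPM (left) and as a share of the miRNA reads in percent (right), both on log axes. Points are the values of single libraries and bars are 95% counting intervals. Both rows are lower in prospermatogonia on both scales, and CT010508.1 lies far above Mir425 in each library.

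The ratio of the 2 rows was compared next, since both are read from the same library and the ratio does not depend on the scaling of that library. In mESCs there were 43.5 reads of CT010508.1 for each read of Mir425 (34.8 to 54.4), and in prospermatogonia 30.6 (23.2 to 40.3). CT010508.1 thus held 97.8% of the reads of the pair in mESCs and 96.8% in prospermatogonia, and Mir425 held 2.25% and 3.16%. Per base of the row, 120 bases for CT010508.1 and 85 for Mir425, the ratio was 30.8 in mESCs and 21.7 in prospermatogonia. These are ratios of reads. Adapters are ligated to some small RNAs better than to others, so that they are not ratios of molecules.

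On the log2 scale the read ratio was 5.44 in mESCs and 4.94 in prospermatogonia, a difference of -0.51 with an interval of -1.02 to 0.0076. The ratio was therefore 1.42-fold higher in mESCs, and its counting interval still included equal ratios. This does not show that the ratio was the same, because the interval also holds a ratio in prospermatogonia of 0.493 times that in mESCs. The 78 and 52 reads of Mir425 limit the precision.

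To see how far the ratio of neighbouring hairpins moved elsewhere, the same difference was computed for adjacent rows within 10 kb on 1 strand with 10 reads or more of each row in both libraries. There were 28 such pairs, which do not include CT010508.1 and Mir425, since these are listed on opposite strands. Neighbours of a cluster share rows, so that the pairs are not independent. The median size of the difference was 0.87 on the log2 scale, with a range from 0.040 to 2.86. The difference was larger than that of the locus in 19 pairs and smaller in 9. In 67.9% of the pairs (19 of 28) the counting interval left out 0, and that of the locus did not.
Of the 3 pairs with the most reads, Mir182 and Mir96 differed by 1.76 (1.33 to 2.20) and Mir294 and Mir295 by 1.48 (1.26 to 1.70). Mir291a and Mir292 differed by -0.55 (-0.69 to -0.40), close to the value of the locus but with a narrower interval. The size of the difference between CT010508.1 and Mir425 thus lay within the range of other neighbours and, as a point value, below their median. Its counting interval reached -1.02, a size above that median, so that its place relative to the median is not settled.

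**Figure D3:**
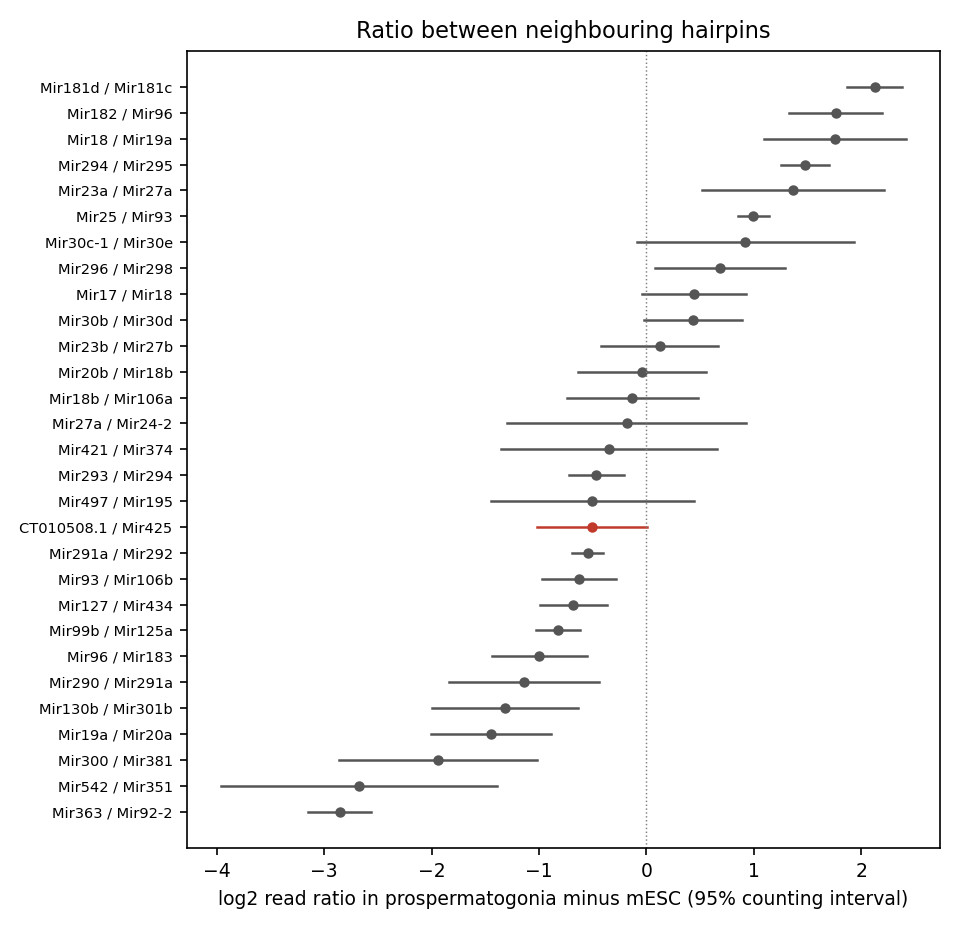
Change of the log2 read ratio between neighbouring rows, prospermatogonia minus mESC (x axis, log2), for CT010508.1 and Mir425 (red) and 28 pairs of adjacent rows on 1 strand (grey). Points are values of 1 library against 1 library and lines are 95% counting intervals. The point value of the locus, -0.51 (interval -1.02 to 0.0076), lies among the smaller changes.

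Both rows had lower RPM in prospermatogonia. CT010508.1 was 13.6-fold lower (12.8 to 14.4) and Mir425 9.57-fold lower (6.74 to 13.6). On the scale of log2(RPM + 1), which understates changes of low features, the ratios of prospermatogonia to mESC were -3.76 and -3.19. Both were at least 2-fold lower, as were 80.8% of the 203 features that reached 10 RPM in either library (164), while 9.85% (20) were at least 2-fold higher. A lower level as such therefore did not distinguish the locus from most features.
Relative to the median log2 ratio of these features, -2.52, CT010508.1 lay at -1.24 and Mir425 at -0.67. Of the 203 features 48 had a lower log2 ratio than CT010508.1 and 69 a lower one than Mir425. Both rows thus lay on the lower side of the middle, and neither was at the extreme.

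The share of all library reads on miRNA features was lower in prospermatogonia, 5.41% against 24.6%, and the size of the difference depends on whether that share enters it. As shares of the miRNA reads, CT010508.1 was 2.99-fold lower in prospermatogonia (2.82 to 3.18) and Mir425 2.11-fold lower (1.48 to 2.99). With the libraries scaled to the median ratio of features, which shifts each log2 ratio by 2.37 before the pseudocount, the log2 ratios were -1.39 for CT010508.1 and -0.88 for Mir425, and the median of the features was -0.28. With that scaling 45 features were at least 2-fold higher and 74 lower (37.8% of the calls higher, against 10.9% with library totals), and Mir425 no longer counted among the lower ones. Nor did it with the sum without the highest rows, at -0.996, whereas scaled to all miRNA reads it did, at -1.07. Each of the 4 scalings applies the same factor to all features, so that the distance of a row from their median can change only through the pseudocount. That distance, between -1.24 and -1.11 for CT010508.1 and between -0.67 and -0.60 for Mir425, is therefore no check of the result.

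**Figure D4:**
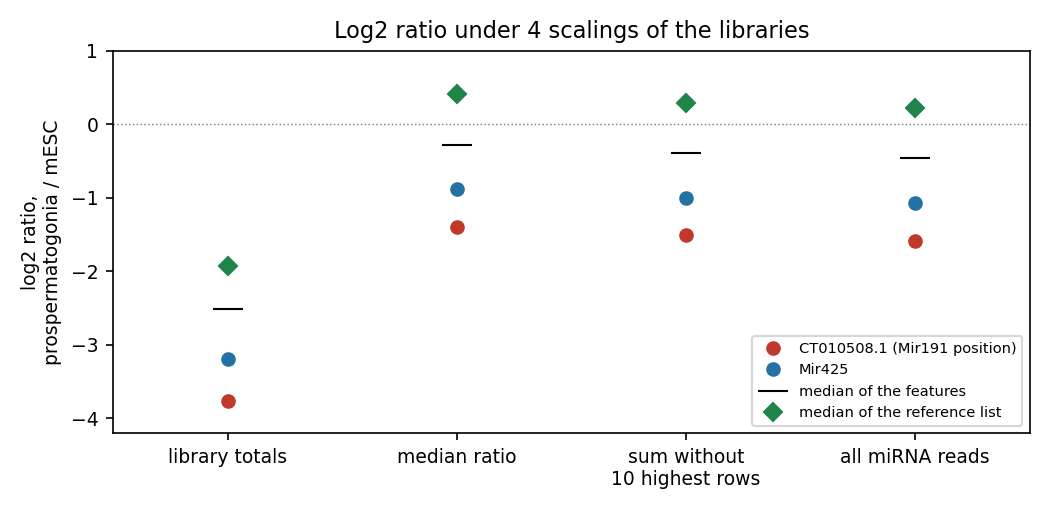
Log2 ratio of prospermatogonia to mESC (y axis) for CT010508.1 (red), Mir425 (blue), the median of 203 features (black bars) and the median of the reference miRNA list (green) under 4 scalings of the libraries. Both rows lie below 0 under each scaling, whereas the reference list is above 0 under all but the library totals. The place of both rows below the median of the features hardly depends on the scaling, since each applies the same factor to all features.

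Because miR-191 has been proposed as a reference RNA, the row at its position and Mir425 were set beside 15 hairpins of other miRNAs proposed for the same use. Of these 14 had a row in the table (Mir24-1 had none), and 10 reached 10 RPM in either library. Of the 10, 9 were at least 2-fold lower in prospermatogonia, 1 was between and 0 were higher, next to 80.8% lower among all features. Under each of the 3 other scalings 2 were lower, 7 between and 1 higher. Of all 203 features, 74, 78 and 81 were then lower and 45, 44 and 41 higher. The order is median ratio, sum without the highest rows and all miRNA reads. With library totals the median log2 ratio of the 10 was -1.92, against -2.52 for all features, and the range of the 10 was -4.46 to 0.62.
CT010508.1 was lower than 9 of the 10, the exception being Mir24-2 with 51 reads in mESCs and 12 in prospermatogonia. Mir425 was lower than 8 of them, all but Mir24-2 and Mir186, which had 700 and 338 reads. Mir423, with 330 reads in mESCs and 3242 in prospermatogonia, was the nearest of the 10 to no change with library totals, at a log2 ratio of 0.62, but the farthest under the other scalings, at 2.80 to 2.99. Mir25 and Mir93, hairpins within the Mcm7 gene, had log2 ratios of -1.38 and -2.38. Mir107, Mir26b, Mir320, Mir361 and Mir484 had log2 ratios between -2.24 and -1.38. The 4 hairpins below 10 RPM were Mir103-1, Mir103-2, Mir16-1 and Mir16-2, with 7 reads or fewer each. These are numbered copies of miR-103 and miR-16, and how reads with several matches were treated is not given. Their low counts therefore need not mean low levels, and the same limit holds for Mir24-2, a copy of Mir24-1. Under the 3 other scalings the median of the list was positive, between 0.22 and 0.41, whereas CT010508.1 and Mir425 stayed negative. In the plot of levels in both libraries, the red point lies below the line of the median ratio and the blue point closer to it.

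**Figure D5:**
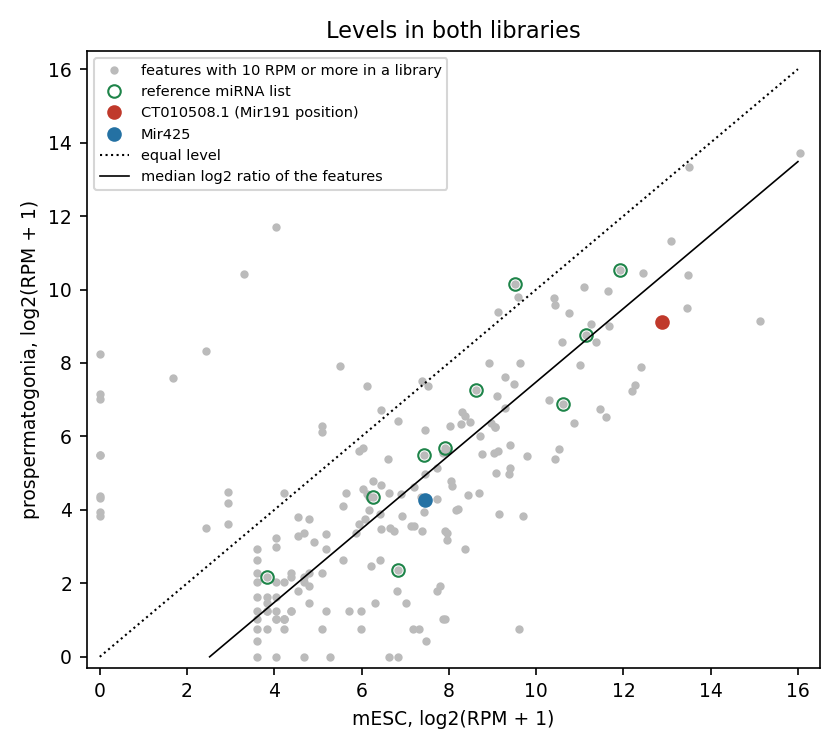
Level of each feature that reached 10 RPM in either library, as log2(RPM + 1) in mESCs (x axis) and in prospermatogonia (y axis), with CT010508.1 (red), Mir425 (blue) and the reference miRNA list (green circles). The dotted line marks equal levels and the solid line the median log2 ratio of -2.52. CT010508.1, with a log2 ratio of -3.76, and Mir425, with -3.19, both lie below the solid line.

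The rows most like CT010508.1 and Mir425 were found by their distance over both libraries, with log2(RPM + 1) in each library as the coordinate. With 2 libraries this likeness rests on 2 values per row. For CT010508.1 they were Mir292 at a distance of 0.68 (5029 reads in mESCs and 2058 in prospermatogonia), Mir27b at 1.23 (1454 and 1486) and Mir291a at 1.31 (2430 and 681). For Mir425 they were Mir450b at 0.14 (73 and 56), Mir210 at 0.28 (95 and 53) and Mir23a at 0.32 (77 and 41). The neighbours of CT010508.1 were farther away, in a range of levels with few features, than those of Mir425.

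The labels were checked with lists of marker miRNAs. The 11 listed hairpins of the Mir290 and Mir302 clusters, which mark mESCs, each had more than 3 reads in the mESC library. They held 24.4% of its miRNA reads, against 3.25% in prospermatogonia, where 6 of them had more than 3 reads. The list leaves out Mir291b, a hairpin of the same cluster with 350 reads in mESCs and 2 in prospermatogonia. Mesenchymal, blood and endothelial markers were lower in prospermatogonia as a share of miRNA reads, and markers of the gonad soma were higher. The share of 6 mesenchymal hairpins was 1.30% in mESCs and 0.169% in prospermatogonia, and Mir143 alone gave 1393 of their 1441 reads in mESCs and 260 of 262 in prospermatogonia. That of 4 blood hairpins was 0.362% and 0.0805%, with all 400 reads in mESCs and 124 of 125 in prospermatogonia on Mir142. The endothelial Mir126 held 0.231% and 0.0258%. Mir199a-1, Mir199a-2, Mir144 and Mir223 were at 0 reads in both libraries. Mir199a-1 and Mir199a-2 are numbered copies of the same miRNA, and how reads with several matches were treated is not given. Their 0 reads therefore need not mean that the miRNA was absent. The gonad soma hairpins Mir202 and Mir140 together held 0.253% in mESCs, with 0 and 280 reads, and 0.396% in prospermatogonia, with 57 and 558 reads. Mir191 and Mir425 are expressed in many cell types, and the part of other cells in the levels of CT010508.1 and Mir425 was not tested. A lower level of a miRNA per cell and a smaller number of cells that hold it cannot be told apart in bulk RNA.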

How the data were processed

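The samples were 1 library of mESCs and 1 of prospermatogonia. Libraries were prepared by the authors with the TruSeq small RNA kit and size-selected on a gel. The submitters' processing notes name Trim Galore 0.4.1, Bowtie and GRCm38, whereas the paper's methods name piPipes and mm9. The step that made the table, its use of strand and its treatment of reads with several matches are not given in the sources used here. The deposited values are log2 values per feature, 1 column per library. In linear form 100% of the values above the lowest were whole multiples, within 0.02 reads, of 1 constant per library. Reads were recovered with it, and the lowest value, which equals 0.9 reads, was set to 0 reads. Read as log2 RPM, the constants give library totals of 449643 reads (mESC) and 2869578 (prospermatogonia). Of the table's 1638 rows 494 had exactly the position and strand of a RefSeq hairpin on GRCm38.p6, and positions are given on that build.

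Log2 ratios used a pseudocount of 1 RPM and, for counts, features that reached 10 RPM in either library. Intervals of a ratio come from the Wilson interval of a share, and those of a difference of log2 ratios or of a fold from the summed reciprocals of the reads. No test was run, since each condition has 1 library. The features named are the 2 rows, the 3 rows nearest to each, rows within 10 kb, rows with a seed in common, the reference list and the 3 neighbouring pairs with the most reads. Mir140 and other markers come from fixed lists. The members and lists were chosen with earlier results of these data known. Hairpins were folded with RNAfold 2.7.2. The computations were tested on simulated reads. Values were computed with scipy 1.17.1, pandas 2.3.3 and numpy 2.4.6 under Python 3.11.15 and plotted with matplotlib 3.10.9.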

Additional observations from a re-analysis of the deposited data

How the results depend on the processing

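Leaving out a replicate was not possible with 1 library per condition. No paired analysis was possible because a single library stands for each cell type. The levels of both rows as a share of miRNA reads, their read ratio and the difference of that ratio stayed within their counting intervals with the lowest value summed as deposited, with the deposited log2 values and with 0.5 reads added. Per base of the row (added after seeing the data) the ratio was 30.8 in mESCs and 21.7 in prospermatogonia, since the rows differ in length.

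Libraries were also scaled to the median ratio, to the sum with the 10 highest rows of each left out, and to all miRNA reads. These scalings moved the log2 ratio of CT010508.1 from -3.76 to -1.39, -1.51 and -1.58, that of Mir425 from -3.19 to -0.88, -0.996 and -1.07 (no longer 2-fold lower under the first and second), and the median of the reference list from -1.92 to 0.41, 0.29 and 0.22. In the same order 45, 44 and 41 features were at least 2-fold higher in place of 20, and 74, 78 and 81 lower in place of 164. With no filter 40 were higher, and when 10 RPM was asked of both libraries 5 were higher and 91 lower. These 2 settings alter the number of features entered. With pseudocounts of 0.1 and 5 the log2 ratio of Mir425 was -3.25 and -2.95, within its counting interval, and with the latter the median of the reference list was -1.78.

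The median size of the difference over neighbouring pairs, 0.87, was 0.75 within 1 kb (22 pairs), 0.75 with 50 reads or more (14 pairs), and 0.995 both for 15 pairs without a stretch of 18 nt in common with another hairpin and, added after seeing the data, for 31 pairs on either strand. These settings change which pairs are counted. Other alternatives moved medians by no more than 0.1 on the log2 scale and counts by no more than 1.5-fold. Depth limits Mir425, with 78 and 52 reads.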

Other observations

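Besides CT010508.1, 5 rows with a clone name cover a RefSeq hairpin that lies only on the other strand. Together they held 72 reads in mESCs and 809 in prospermatogonia. AC165361.1, across from Mirlet7e (a let-7 hairpin), had 20 reads in mESCs and 686 in prospermatogonia. AC121784.1, across from Mir409 in the imprinted miRNA cluster of chromosome 12, had 43 and 118. AC121784.3, across from Mir380, had 6 and 5, AC121784.2, across from Mir376a, had 3 and 0, and AC147162.1, across from Mirlet7f-1, had 0 in both. The log2 ratio of AC165361.1 was 2.40 and that of CT010508.1 was -3.76, so that rows listed on the strand opposite to a hairpin did not move in 1 direction. These rows were chosen after their values were seen.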
